A study of Homo sapiens with 8 samples.

Results

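Quisinostat was compared with its vehicle in MP38, a BAP1-mutant uveal melanoma (UM) cell line, through the RNA of cells grown for 24 h with 40 nM of the drug or with DMSO alone. The treatment labels put 2 libraries in the quisinostat group and 2 in the control group, 4 of the 8 libraries of the series, and no measured value entered that choice. The control cells received 0.1% DMSO, the solvent in which the drug was also given. The remaining libraries come from the same line after 24 h with 40 nM romidepsin or with 1200 nM mivebresib, 2 libraries each, and were used for direct comparisons with quisinostat. All 4 groups share 1 cell line and its BAP1 mutation, and the replicates are wells of that line, so a p-value here measures the spread between wells, which may be technical. Bulk RNA was measured, and a smaller share of cells that use a gene cannot be told apart from less of its RNA in each cell.

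Histone deacetylases (HDACs) remove acetyl groups from lysines of histones and of other proteins, and tightly packed, deacetylated chromatin is in general poorly transcribed. Quisinostat is a hydroxamate that binds the zinc in the catalytic pocket of these enzymes, whereas romidepsin is a cyclic depsipeptide prodrug whose freed thiol binds the same metal. Mivebresib belongs to another class and keeps BET proteins, which read acetylated lysines, from binding them. In melanocytic cells, HDAC inhibition is known to slow the cell cycle and to alter the expression of lineage genes.

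The libraries held 28483235 to 29359024 counts. The quisinostat libraries had a count in 19483 and 19561 gene symbols, more than the 17856 and 18075 of the control and the 18425 and 18653 of romidepsin. Mitochondrial genes took 3.59% to 5.09% of the counts. The control libraries differed more from each other than those of quisinostat did, with a chi-square statistic per degree of freedom of 58.1 against 9.79, and results that rest on 1 control library are named as such. Some melanocytic markers were abundant. TYRP1, a melanosome enzyme, had 2985 and 4116 CPM (each library's counts scaled to the same total with edgeR's TMM factors) in the control and 2748 and 3228 CPM with quisinostat, and PMEL, the protein of the melanosome's fibrils, had 421 and 589 CPM in the control and 471 and 530.3 CPM with the drug. DCT, another enzyme of melanin synthesis, had 1 to 4 counts in these 4 libraries and did not pass the filter on low counts. The other tested enzyme of this pathway was scarce too. Together with TYRP1 it summed to 2987 and 4119 CPM in the control, nearly all of it TYRP1. Of 24 markers of fibroblasts, endothelium, immune cells and epithelium, 16 were below the filter, and 6 of the 8 tested were higher with quisinostat, among them COL1A1 (1.42 and 1.64 CPM against 10.4 and 7.99), KDR (0.425 and 0.621 against 4.495 and 5.06) and KRT8 (0.567 and 0.511 against 1.65 and 1.24). Of 7 fibroblast markers 5 were below the filter, and PDGFRB, tested beside COL1A1, was lower without passing the test (log2 FC -1.07). LUM, CDH5 and CD3E, markers of fibroblasts, endothelium and T cells, had no count in any of the 4 libraries. Other markers of these sets had some. PTPRC had 4 and 3 counts in the control and 11 and 7 with quisinostat, VWF 3 and 3 against 10 and 7, and DCN 4 and 1 against 4 and 5. CD68, the 1 tested immune marker, had 65.8 and 83.0 CPM in the control and 67.6 and 65.8 with quisinostat.

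Stretches upstream of the RefSeq transcription start are shown for 8 genes, chosen because they stand for the groups that fell together and for the group that rose. Coordinates are those of GRCh38.p14, and each stretch is written 5′ to 3′ along the gene. It ends at the base before the start, or 11 bases before it where an exon begins earlier in GENCODE 29, and none overlaps an exon of that annotation. For the mitotic genes ESPL1, which encodes separase, CENPF, a kinetochore protein, and CDC25A, a phosphatase that activates cyclin-dependent kinases, the capitals mark CCAAT boxes (CCAAT or its reverse complement, ATTGG) and the cell cycle homology region (CHR, TTTGAA or TTCAAA).
ESPL1 (chr12:53268149-53268298, + strand): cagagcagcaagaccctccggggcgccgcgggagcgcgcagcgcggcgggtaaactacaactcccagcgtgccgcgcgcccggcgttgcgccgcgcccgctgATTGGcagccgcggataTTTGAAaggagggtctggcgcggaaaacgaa
CENPF (chr1:214603045-214603194, + strand): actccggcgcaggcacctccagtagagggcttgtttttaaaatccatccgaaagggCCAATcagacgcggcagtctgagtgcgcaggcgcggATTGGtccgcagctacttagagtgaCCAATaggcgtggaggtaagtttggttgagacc
CDC25A (chr3:48188418-48188567, - strand): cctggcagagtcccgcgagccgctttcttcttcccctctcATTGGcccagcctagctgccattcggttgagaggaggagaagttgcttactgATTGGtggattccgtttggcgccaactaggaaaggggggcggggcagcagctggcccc
For the S phase genes RAD54L, a recombination helicase, and MCM10, an origin-firing factor, the capitals mark CCAAT boxes and the E2F motif (GCGGGAA or TTCCCGC).
RAD54L (chr1:46247538-46247687, + strand): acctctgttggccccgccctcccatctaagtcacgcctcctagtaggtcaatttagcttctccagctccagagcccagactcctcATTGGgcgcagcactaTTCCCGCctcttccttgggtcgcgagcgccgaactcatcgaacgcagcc
MCM10 (chr10:13161408-13161547, + strand): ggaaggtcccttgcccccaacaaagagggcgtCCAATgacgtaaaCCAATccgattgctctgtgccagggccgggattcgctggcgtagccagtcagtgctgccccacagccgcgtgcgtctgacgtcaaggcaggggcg
For the neuronal genes SYT2, a calcium sensor of synaptic vesicles, INA, the neurofilament protein internexin alpha, and SLC18A3, the vesicular acetylcholine transporter, the capitals mark GC boxes (GGGCGG or CCGCCC), the motif bound by SP1.
SYT2 (chr1:202710455-202710604, - strand): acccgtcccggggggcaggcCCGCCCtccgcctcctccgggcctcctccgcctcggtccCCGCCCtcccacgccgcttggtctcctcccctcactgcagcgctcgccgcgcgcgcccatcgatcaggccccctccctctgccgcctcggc
INA (chr10:103276988-103277137, + strand): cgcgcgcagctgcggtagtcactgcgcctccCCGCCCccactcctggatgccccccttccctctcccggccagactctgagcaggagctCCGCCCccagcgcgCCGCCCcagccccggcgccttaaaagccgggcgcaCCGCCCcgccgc
SLC18A3 (chr10:49610160-49610299, + strand): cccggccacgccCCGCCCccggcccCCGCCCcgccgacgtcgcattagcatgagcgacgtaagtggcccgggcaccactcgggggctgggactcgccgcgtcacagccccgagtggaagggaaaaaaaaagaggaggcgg
ESPL1 pairs a CCAAT box 48 bases before the start with a CHR 31 bases before it, and RAD54L pairs a CCAAT box at 65 bases with an E2F motif at 49. CENPF holds CCAAT boxes at 94, 58 and 33 bases, MCM10 CCAAT boxes at 118 and 105 but no E2F motif, and INA GC boxes at 119, 61, 47 and 12 bases.

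Promoters were listed for 11567 (76.7%) of the 15085 genes tested, and both strands of the 250 bases before each start were searched. A CCAAT box stood in 75.6% of the 45 matched promoters of mitosis genes and in 53.2% of the 47 of S phase genes, against 34.9% of all matched promoters. It was not particular to cell cycle genes, and stood in 58.2% of the 55 of developmental transcription factors, of which more rose than fell, and in 71.4% of the 21 of sterol genes. The CHR stood in 44.4% of the mitosis promoters against 8.61% of all, and the E2F motif in 36.2% of the S phase promoters against 8.68%. The GC box stood in 70.6% of 34 matched promoters of vesicle genes, 61.4% of the 1218 of genes that rose past both thresholds named in the next paragraph, and 66.4% of all. Matches of different motifs may share bases, as GGGCGG and GCGGGAA can. These are matches of letters, and binding was not measured.

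Quisinostat changed a large share of the transcriptome. At an adjusted p below 0.05 from edgeR's quasi-likelihood test, 4231 genes were higher with the drug (28.0% of the 15085 tested) and 3793 were lower (25.1%). With the further threshold of a log2 FC beyond 1.5, 1689 genes were higher (11.2%) and 156 lower (1.03%). The split at the adjusted p alone rests on the scaling, since TMM factors hold the median gene near 0 (log2 FC -0.0036). With library size alone the median of all genes was 0.196 and 5625 genes were higher against 2144 lower, and with upper-quartile factors the median was 0.126 and 5048 were higher against 2673 lower. All fold changes are therefore relative to the bulk of genes. Past both thresholds the rises outnumbered the falls under either scaling. The numbers were 1956 against 96 with library size alone and 1862 against 117 with upper-quartile factors. The counts for gene groups given below stand beside the 28.0% of all tested genes that were higher and the 25.1% that were lower. Both shares depend on the level in the control. Of genes under 0.5 CPM there 54.5% were higher, and of those over 100 CPM 49.7% were lower.

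The strong rises came mostly from genes that the control cells hardly used, with 56.4% of them under 0.5 CPM there. Genes that rose past both thresholds had a median of 0.357 CPM in the control, those that fell 16.6 CPM, and all tested genes 19.9 CPM. Among the 1889 genes under 0.5 CPM in the control, 50.4% rose past both thresholds, and this share was 26.2% from 0.5 to 1 CPM, 18.3% from 1 to 5 CPM, 4.56% from 5 to 20 CPM and 0.413% from 20 to 100 CPM. None of the 2448 genes over 100 CPM did, whereas 49.7% of these were lower at the adjusted p alone and 4.29% higher. A gene with few counts in the control enters this class only if another group raised it above the filter, so the share in the lowest class is a description and not a rate over all silent genes. Summed over genes, the gain of those that rose past both thresholds came to 1.19% of the counts, and the loss of those that fell to 0.413%. On GENCODE 29, the risen genes had a median span of 52.6 kb, the fallen ones 17.9 kb and all tested genes 32.9 kb.

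**Figure D1:**
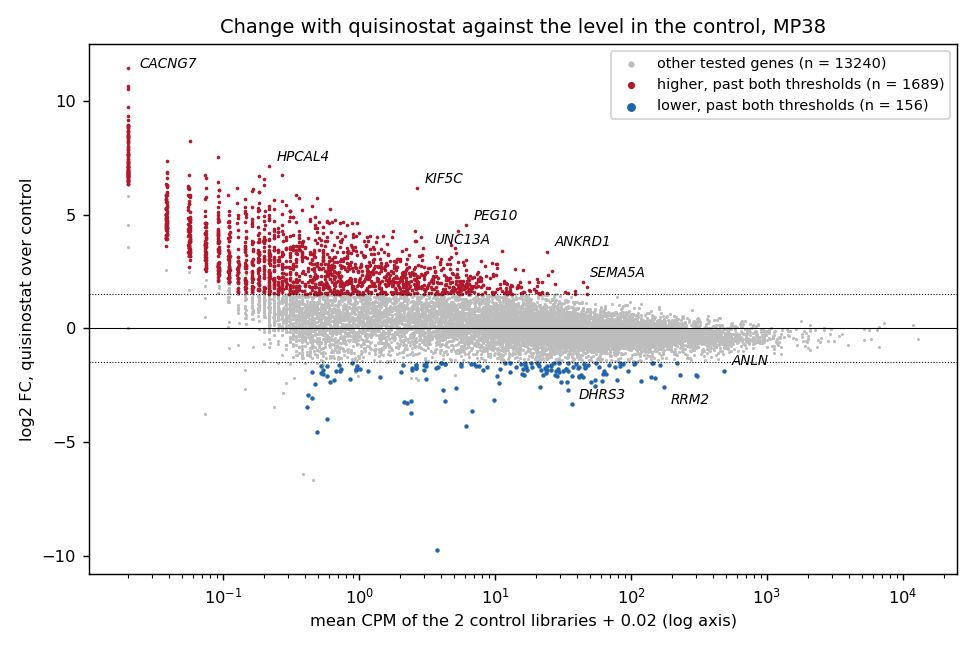
Log2 FC of quisinostat over control (y axis) against the mean CPM of the 2 control libraries plus 0.02 (x axis, log scale) for each of the 15085 genes tested. The 1689 genes that rose past both thresholds (red) lie mostly at the left, and the 156 that fell (blue) in the middle of the range. Genes with no control count form the column at the far left, where the fitted value depends on the model's prior.

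**Figure D2:**
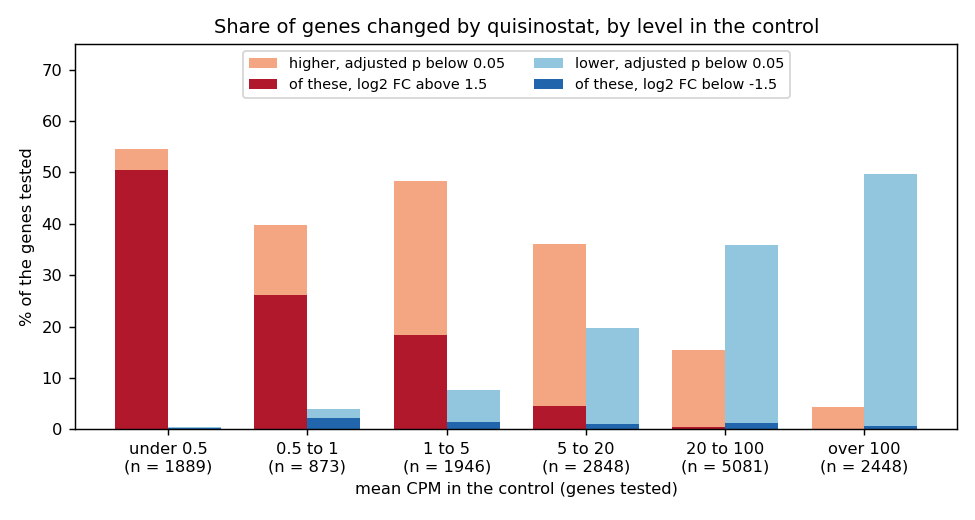
Share of tested genes that were higher (left bars) or lower (right bars) with quisinostat in 6 classes of mean control CPM, with the dark part beyond a log2 FC of 1.5. The dark red part shrinks from 50.4% of genes under 0.5 CPM to none over 100 CPM, where the lower genes reach 49.7%.

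Among well expressed genes, those whose log2 CPM averaged 3 or more over all libraries, the largest rise was that of HPCAL4, a neuronal calcium sensor. It had 0.142 and 0.256 CPM in the control and 28.5 and 28.2 CPM with quisinostat (log2 FC 7.13 ± 0.23, adjusted p = 6.8e-07). Both drug libraries lay far above both controls, and romidepsin stood between them with 6.8 and 5.44 CPM. HPCAL4 lies on chromosome 1 from 39678648 to 39691689 in GRCh38, with no gene annotated on the other strand. KIF5C, the neuronal kinesin heavy chain that carries cargo along axons, went from 2.16 and 3.14 CPM to 184 and 199 CPM (log2 FC 6.17 ± 0.16, adjusted p = 6e-07). CDK5R2, an activator of the neuronal kinase CDK5, went from 0.496 and 0.438 CPM to 24.4 and 26.4 CPM (log2 FC 5.75 ± 0.21, adjusted p = 8.4e-07). The other genes of the 12 largest rises at this level were ELOVL2, which elongates polyunsaturated fatty acids, with a log2 FC of 4.65, FAM171B with 4.64, PEG10 with 4.54, BEX5 with 4.30, CD24 with 4.30, the neurotrophin receptor NGFR with 4.27, the mannosidase MAN1A1 with 4.21, the T-type calcium channel CACNA1G with 4.08 and the drug efflux pump ABCB1 with 4.07. Their adjusted p-values ran up to 5.5e-06 in edgeR, and in each of these genes both drug libraries exceeded both controls.

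PEG10, an imprinted gene derived from a retrotransposon, had 4.995 and 7.196 CPM in the control and 141 and 142 CPM with quisinostat. It overlaps SGCE, which is read from the other strand, and SGCE rose as well (log2 FC 4.91, from 0.248 and 0.658 to 13.7 and 13.7 CPM). Whether the counting used strand is not given in the sources used here, so the counts of such pairs cannot be separated with certainty. This holds also for ABCB1, which overlaps RUNDC3B, and for SYT2, which overlaps PPP1R12B. Further named genes have such overlaps that are not marked. By gain in mean CPM among genes past both thresholds, ANKRD1, a nuclear ankyrin-repeat protein and YAP target, came first with 25.2 and 23.1 CPM in the control and 262 and 236 with the drug (log2 FC 3.37 ± 0.095, adjusted p = 6.5e-07). The 8 largest gains among these genes also held SEMA5A, an axon guidance protein (log2 FC 2.03), CYFIP2, a WAVE complex subunit (2.53), the carboxypeptidase CPA4 (1.82), UNC13A, which primes synaptic vesicles (3.41), and SEPP1, the selenium carrier selenoprotein P (2.37). CPA4 differed between its controls (36.2 and 58.8 CPM), yet both lay below the drug libraries (164 and 171 CPM).

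Some genes with no or almost no counts in the control had many with quisinostat. Genes with at most 3 counts in each control library number 415 among those tested, and they could pass the filter only through a group of treated libraries, so how many of them rose is no result. Of these, 110 exceeded 1 CPM in both quisinostat libraries. For such genes a fitted fold change depends on the model's prior count, and the ratio of summed counts is given instead, against a floor of 3 counts over the group where the control had none, with 95% intervals that cover counting error only. CACNG7, which encodes an auxiliary subunit of AMPA receptors, had no count in the control and 379 and 382 counts with quisinostat, at least 224-fold higher. LRRN1, a neuronal leucine-rich repeat protein, had 0 and 2 against 351 and 418 counts, a ratio of 339 (interval 93.6 to 2810.0). In both genes the drug libraries were far from the controls, and romidepsin lay between with 38 and 27 and 88 and 70 counts. ADCYAP1R1, the receptor of the neuropeptide PACAP, had a ratio of 115 (39.1 to 560), PHF21B 105 (35.6 to 510), RTBDN 91.4 (35.4 to 337) and SCUBE1 72.8 (28.2 to 269). RTBDN overlaps MAST1 on the other strand, which rose from 1.42 and 1.06 to 13.9 and 15.9 CPM, and LRRN1 too overlaps another gene. SFT2D3 had no count in the control, 185 and 258 with quisinostat and none in either romidepsin library, but it lies within the span of WDR33 on the opposite strand, which fell (log2 FC -0.75).

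Falls past both thresholds were fewer. The largest among well expressed genes was that of DHRS3, a retinaldehyde reductase, with 33.7 and 39.4 CPM in the control and 3.51 and 3.66 CPM with quisinostat (log2 FC -3.35 ± 0.13, adjusted p = 1.1e-06). MYBL2, a transcription factor of proliferating cells, went from 38.5 and 30.3 CPM to 5.38 and 5.25 CPM (log2 FC -2.69 ± 0.13, adjusted p = 2.4e-06). RRM2, the subunit of ribonucleotide reductase made in S phase, went from 169 and 178 CPM to 29.5 and 28.02 CPM (log2 FC -2.59 ± 0.079, adjusted p = 6.5e-07). The drug pair lay below the control pair in all 3 genes by more than either pair's own spread. Of the 12 largest falls at this level, MCM5, MCM7, MCM10, RRM2 and UHRF1 act in DNA replication or its maintenance of methylation, and MYBL2, ZNF367 and FAM111B are expressed with the cell cycle. The remaining 4 were DHRS3, the integrin activator FERMT3 (log2 FC -2.35), the stress factor ATF5 (-2.32) and CITED1, a transcriptional coregulator found in melanocytic cells (-2.28). FERMT3, ATF5, CITED1 and MCM7 each overlap a gene on the opposite strand in GENCODE 29.

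By loss in mean CPM among genes past both thresholds, ANLN, a scaffold of the cytokinetic ring, came first with 435 and 536 CPM in the control and 134 and 135 CPM with quisinostat (log2 FC -1.85 ± 0.11, adjusted p = 5.5e-06). MYLK, the kinase of the myosin light chain, had 336 and 281 against 74.7 and 70.7 CPM (log2 FC -2.08 ± 0.11, adjusted p = 3.4e-06), and the matricellular protein NOV had 247 and 355 against 69.8 and 74.6 CPM (log2 FC -2.06 ± 0.16, adjusted p = 2.1e-05). Both controls exceeded both drug libraries in each. The 8 largest losses among these genes also held MCM4 (log2 FC -2.03), the methionine salvage enzyme ADI1 (-1.52) and thymidylate synthase TYMS (-2.20), which overlaps another gene. GALNT3 and PER3, chosen after their values were seen, fell strongly at lower levels. GALNT3, a glycosyltransferase, went from 6.59 and 6.79 to 0.538 and 0.541 CPM, and PER3, a circadian clock gene, from 8.82 and 10.7 to 1.01 and 1.21 CPM (log2 FC -3.62 and -3.13). The read-through gene RPS10-NUDT3, also chosen after its values were seen, had 142 and 65 counts in the control and none in either drug library, but its reads can be split with the genes it joins.

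The genes of the drug's own targets changed little. Of 11 HDAC genes, HDAC6 and HDAC8 rose and HDAC4, HDAC7 and HDAC9 fell, with HDAC7 changing most. The fall of HDAC9 (log2 FC -0.24) missed the threshold with library size alone (-0.0372), with upper-quartile factors (-0.107), with the replicate block (-0.235) and when any library but control replicate 2 was left out, and that of HDAC4 with library size alone (-0.313) and without quisinostat replicate 1 (-0.462). The median over the 11 was 0.0134 against -0.0036 over all genes tested. This median changed sign without control replicate 2 (-0.0441). HDAC6, the cytoplasmic tubulin deacetylase, had 19.5 and 22.9 CPM in the control and 30.3 and 32.2 with quisinostat (log2 FC 0.56 ± 0.11, adjusted p = 0.0022). HDAC7, of class IIa, had 84.9 and 83.6 against 54.96 and 53.9 CPM (log2 FC -0.63 ± 0.074, adjusted p = 0.00018). The class I enzymes HDAC1 (145 and 145 against 143 and 135 CPM) and HDAC2 (159.5 and 160 against 142 and 141 CPM) did not pass the test, with adjusted p-values of 0.57 and 0.097 in edgeR.

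Genes that place or read acetyl groups, listed with those of the elongation kinase P-TEFb and its 7SK inhibitor, were lower in many cases. Of 23 tested, 15 fell and none rose, with a median of -0.439, and 4 of these falls were among the 7 genes of P-TEFb and 7SK. The 1 fall beyond the fold threshold was in that group, of MEPCE, which caps the 7SK RNA that holds P-TEFb inactive, from 94.9 and 93.7 CPM to 26.3 and 24.4 CPM (log2 FC -1.89 ± 0.084, adjusted p = 1.7e-06). Among acetyltransferases 9 of 13 fell, including CREBBP (log2 FC -0.87), EP300 (-0.52) and KAT6B (-0.95). BRD2, a BET protein that binds acetylated histones, went from 178 and 174 CPM to 112 and 108 CPM (log2 FC -0.68 ± 0.079, adjusted p = 0.00017). CDK9, the kinase of P-TEFb, fell by 0.47 on the log2 scale.

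Of 74 histone genes 32 were below the filter, and of the 42 tested 19 fell and 6 rose (median -0.339), 6 of the falls past both thresholds, or 2 with library size alone. Reads of clustered histone genes can be shared between near-identical copies, so single values there are uncertain. Among the replacement histones, H1F0, the linker histone of cells that leave the cycle, rose from 177 and 166 CPM to 258 and 246 CPM (log2 FC 0.56 ± 0.080, adjusted p = 0.00054). H2AFY2, which encodes a macroH2A, rose from 0.425 and 0.219 to 1.298 and 1.37 CPM (log2 FC 2.03). Of 33 polycomb genes, which encode the complexes that write and read repressive histone marks and include BAP1's own complex, 17 fell and 4 rose (median -0.284), or 9 fell with library size alone. In polycomb repressive complex 2 (PRC2), 8 of 11 fell, among them the methyltransferase EZH2 (log2 FC -0.70) and SUZ12 (-0.65). PHF19, which guides PRC2 to chromatin, fell from 47.7 and 40.7 CPM to 10.2 and 10.1 CPM (log2 FC -2.12 ± 0.13, adjusted p = 7e-06). JARID2, another PRC2 cofactor, rose from 9.03 and 11.3 to 20.5 and 20.7 CPM (log2 FC 1.02), as did PHC1 of PRC1 (1.06). BAP1 itself did not pass the test, with 83.6 and 82.2 CPM in the control and 95.03 and 89.5 with quisinostat (adjusted p = 0.13 in edgeR).

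**Figure D3:**
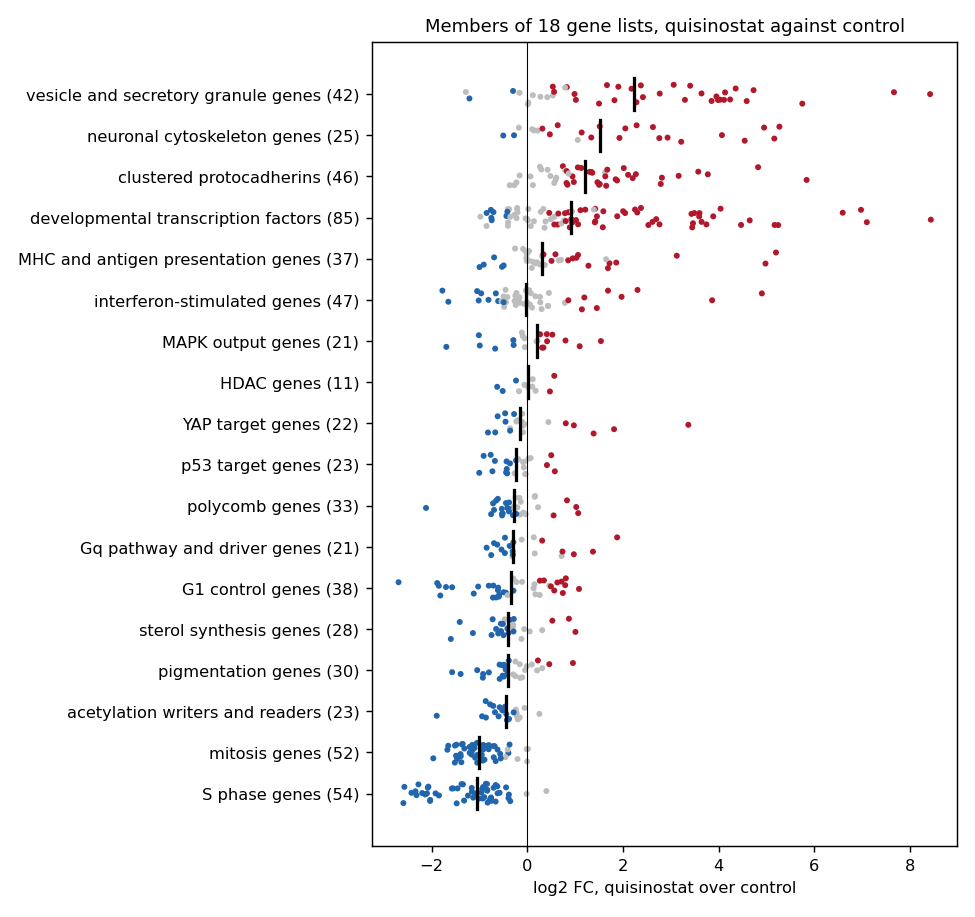
Log2 FC of quisinostat over control for each tested member of 18 gene lists (points, with the number tested beside each name) and the median of each list (bar). Red and blue points passed an adjusted p below 0.05. The medians run from 2.23 for vesicle genes to -1.05 for S phase genes, and the fitted values of genes with hardly a count in the control, the farthest to the right, are no bound.

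The machinery of DNA replication fell almost as a whole. Of 54 S phase genes 52 fell and none rose, 17 past both thresholds, with a median log2 FC of -1.05. The 16 genes of the replicative helicase and of origin licensing all fell, 9 past both thresholds, with a median of -1.7. CDC45, which completes the active helicase, had 11.02 and 10.3 CPM in the control and 1.93 and 2.04 CPM with quisinostat (log2 FC -2.42 ± 0.17, adjusted p = 1.2e-05). MCM7, a subunit of the helicase ring, had 116 and 119.8 CPM against 22.3 and 25.1 CPM (log2 FC -2.32 ± 0.085, adjusted p = 8.4e-07). RAD54L, whose upstream stretch is shown above, had 11.9 and 13.7 against 3.77 and 2.99 CPM (log2 FC -1.92 ± 0.14, adjusted p = 1.6e-05). The pairs of libraries were well apart in each. The 19 polymerase and fork genes changed less, with a median of -0.844. PCNA, the sliding clamp, went from 187 and 178 to 105 and 96.1 CPM (log2 FC -0.87), and 2 of the 19 did not pass the test. The 7 genes of nucleotide supply and the 12 of recombination repair all fell.

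Mitotic genes fell in nearly the same proportion and by a like amount in the median. Of 52 tested, 46 fell and none rose (median -1.02), 5 past both thresholds, a number that was 9 without control replicate 2 and 1 with library size alone. PLK4, the kinase that starts centriole duplication, had 23.2 and 24.2 CPM in the control and 5.95 and 6.18 CPM with quisinostat (log2 FC -1.97 ± 0.094, adjusted p = 2.4e-06). PLK1, which drives entry into mitosis, had 79.96 and 80.7 against 29.5 and 29.6 CPM (log2 FC -1.44 ± 0.073, adjusted p = 2.8e-06). BIRC5, the inhibitor of apoptosis survivin, had 91.7 and 72.9 against 27.4 and 24.3 CPM (log2 FC -1.67 ± 0.13, adjusted p = 1.6e-05). In each the drug pair lay below the control pair. The 3 genes with printed promoters fell too, with a log2 FC of -1.35 for ESPL1, -1.17 for CENPF and -1.48 for CDC25A. Cyclin B1 (CCNB1) and its kinase CDK1 fell less, by 0.66 and 0.92 on the log2 scale, and CDC25C was among the 6 genes that did not pass.

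The regulators of G1 moved in both directions. Of 38 tested, 19 fell and 10 rose (median -0.351). E2F1, which activates S phase genes, went from 34.3 and 28.8 CPM to 8.33 and 8.76 CPM (log2 FC -1.88 ± 0.11, adjusted p = 4.7e-06), and FOXM1, which activates mitotic genes, from 118 and 91.9 CPM to 37.1 and 33.5 CPM (log2 FC -1.57 ± 0.13, adjusted p = 3.1e-05). Cyclin E2 (CCNE2) fell by 1.82 on the log2 scale. These transcription factors and the cyclin dropped in both libraries below either control. Among the D cyclins, CCND1 fell from 1622 and 1678 to 1024 and 982 CPM (log2 FC -0.72), while CCND2 rose from 26.6 and 26.7 to 59.6 and 52.99 CPM (1.08). MYC fell from 102 and 101 to 62.02 and 61.8 CPM (log2 FC -0.71 ± 0.071, adjusted p = 7.4e-05). Of 7 CDK inhibitors 4 rose and 2 fell. CDKN2B, the inhibitor p15, rose from 12.5 and 12.5 to 22.2 and 21.1 CPM (log2 FC 0.79). CDKN1A, the inhibitor p21 that HDAC inhibitors are known to induce, was lower in both drug libraries, with 312 and 271 CPM in the control and 227 and 201 CPM with quisinostat (log2 FC -0.45 ± 0.11, adjusted p = 0.0086), a fall that did not pass with library size alone or without quisinostat replicate 2, and it stood at 309 and 336 CPM with romidepsin.

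Genes of neurons and neuroendocrine cells rose from low levels. Of 42 tested genes for synaptic vesicles and secretory granules, 31 rose, 25 of them past both thresholds, and 2 fell, with a median log2 FC of 2.23. Members with few counts in the control pass the filter only through treated libraries. Of all tested genes under 0.5 CPM in the control 54.5% were higher. UNC13A, which primes vesicles for release, had 9.85 and 12.8 CPM in the control and 116 and 124 CPM with quisinostat (log2 FC 3.41 ± 0.13, adjusted p = 9.2e-07). SYT2, a calcium sensor for release, had 0.3897 and 0.292 CPM against 17.3 and 19.97 CPM (log2 FC 5.75 ± 0.20, adjusted p = 7.8e-07). SNAP25, a subunit of the fusion complex, had 0.531 and 0.548 against 7.95 and 7.77 CPM (log2 FC 3.85 ± 0.22, adjusted p = 4.3e-06). The drug pair stood far above the control pair in all 3. Of the transporters that fill vesicles, SLC18A3 for acetylcholine rose from 4.92 and 5.37 to 50.5 and 50.7 CPM (log2 FC 3.30), SLC17A7 for glutamate from 1.17 and 0.585 to 16.02 and 15.1 CPM (4.14), and SLC32A1 for GABA from no count to 45 and 48 counts, at least 27.4-fold higher. The granule protein SCG5 fell from 23.2 and 17.4 to 9.69 and 7.87 CPM (log2 FC -1.21).

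Of 25 neuronal cytoskeleton genes 18 rose, 13 past both thresholds, and 2 fell (median 1.51). The limit of the filter given for vesicle genes holds here too. All 5 neurofilament genes rose. INA, already expressed in the control, went from 48.96 and 45.9 CPM to 136 and 136 CPM (log2 FC 1.51 ± 0.087, adjusted p = 4.7e-06), and NEFL, the light chain, from 0.106 and 0.256 CPM to 6.05 and 5.35 CPM (log2 FC 4.95 ± 0.35, adjusted p = 1.2e-05). MAPT, the microtubule protein tau, went from 4.96 and 5.48 CPM to 31.8 and 32.7 CPM (log2 FC 2.63 ± 0.11, adjusted p = 1.1e-06). TUBB3, the beta tubulin of neurons, did not pass the test, with 80.5 and 76.3 CPM in the control and 96.7 and 85.1 CPM with quisinostat (adjusted p = 0.089 in edgeR). The repressor of neuronal genes outside neurons, REST, had 54.8 and 59.8 CPM in the control and 57.3 and 59.5 CPM with quisinostat (adjusted p = 0.8). Of its 10 complex genes 1 rose, RCOR2 (log2 FC 0.90), and 1 fell, with a median of -0.00725 that was 0.193 with library size alone and 0.123 with upper-quartile factors.

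Developmental transcription factors, many of which polycomb complexes keep silent in differentiated cells, were higher in many cases. Of 117 listed, 32 were below the filter, 48 of the 85 tested rose, 30 past both thresholds, and 7 fell, with a median of 0.92. The share that rose, 56.5%, is near the 54.5% of all tested genes under 0.5 CPM in the control. It is a description, since members with few control counts pass the filter only through treated libraries. The number that fell was 2 without control replicate 1, 12 without control replicate 2 and 4 with library size alone or upper-quartile factors. POU4F1, a homeobox factor of sensory neurons and retinal ganglion cells, rose from 0.248 and 0.365 CPM to 3.55 and 4.203 CPM (log2 FC 3.64 ± 0.26, adjusted p = 1.2e-05). PAX2, of the optic stalk and kidney, rose from 0.319 and 0.0731 CPM to 2.82 and 3.15 CPM (log2 FC 3.89 ± 0.43, adjusted p = 0.00012). PAX6, which specifies the eye, rose from 0.283 and 0.256 CPM to 1.24 and 1.02 CPM (log2 FC 2.05 ± 0.34, adjusted p = 0.0012). All 3 stayed at a few CPM or less in the drug libraries. EMX1, of the forebrain, had no count in the control and 47 and 47 counts with quisinostat, at least 27.7-fold higher, and NKX2-1, of lung, thyroid and forebrain, had 18 and 19 counts, at least 10.9-fold higher. The 7 that fell included FOXD3 (log2 FC -0.76) and PAX3 (-0.44), factors of the neural crest, and TBX2 (-0.74), which melanocytes express.

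Of 30 tested pigmentation genes 16 fell and 3 rose (median -0.406), or 9 fell with library size alone. Among the transcription factors, MITF, the regulator of the lineage, fell from 351 and 349 CPM to 133 and 134 CPM (log2 FC -1.39 ± 0.078, adjusted p = 4.2e-06). Of the receptors, EDNRB for endothelin (log2 FC -0.80) and MC1R for melanocortin (-0.52) fell, though MC1R missed the threshold with library size alone (-0.316) and without quisinostat replicate 2 (-0.472). KIT also passed the test (-0.49), but missed it with library size alone (-0.291), upper-quartile factors (-0.363), limma-voom (-0.471) and when any library but control replicate 1 was left out (-0.19 without control replicate 2). TRPM1, a melanocytic channel and the 1 member past both thresholds, went from 4.71 and 3.799 CPM to 1.52 and 1.34 CPM (log2 FC -1.57 ± 0.31, adjusted p = 0.0028). The melanosome's copper transporter ATP7A rose from 15.1 and 21.9 to 34.5 and 37.2 CPM (0.95). TYRP1 did not pass the test, and nor did the other tested enzyme of melanin synthesis. The M-box letters CATGTG, which MITF binds, stood on either strand in 36.0% of the 25 matched pigmentation promoters and in 5.67% of all.

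UM mostly arises from mutations that keep the Gq proteins active, and both of their genes were slightly lower. GNAQ went from 187 and 184 CPM to 150.2 and 153 CPM (log2 FC -0.29 ± 0.078, adjusted p = 0.013) and GNA11 from 133 and 139 CPM to 111 and 108 CPM (log2 FC -0.31 ± 0.077, adjusted p = 0.0099). Of 21 Gq pathway and driver genes 11 fell and 5 rose (median -0.302), or 5 fell with library size alone and 7 with upper-quartile factors, under which neither GNAQ nor GNA11 passed. RASGRP3, which links Gq to RAS in UM, fell from 138 and 133 CPM to 75.2 and 75.4 CPM (log2 FC -0.85 ± 0.075, adjusted p = 3.7e-05). PRKCB, a protein kinase C, rose past both thresholds from 22.4 and 18.6 CPM to 74.9 and 75.7 CPM (log2 FC 1.88 ± 0.10, adjusted p = 3.9e-06), and RGS2, which shortens Gq signals, rose from 15.5 and 13.1 to 37.6 and 36.4 CPM (log2 FC 1.37). Of 21 genes at the output of the MAPK pathway 9 rose and 6 fell (median 0.193), or 3 fell with library size alone or upper-quartile factors. FOS fell from 56.5 and 60.3 CPM to 17.8 and 18.3 CPM (log2 FC -1.69 ± 0.096, adjusted p = 4.5e-06), and the ERK phosphatase DUSP6 from 75.1 and 77.1 to 46.98 and 48.5 CPM (log2 FC -0.67), while ETV1 rose from 33.1 and 35.3 to 96.7 and 102 CPM (log2 FC 1.54 ± 0.082, adjusted p = 3.4e-06). YAP1, the coactivator downstream of Gq in UM, fell from 272 and 257 to 153 and 161 CPM (log2 FC -0.76). Of 22 YAP targets 7 fell and 5 rose, with a median of -0.145 that turned to 0.0568 with library size alone. CTGF rose from 251 and 306 to 432 and 541 CPM (log2 FC 0.80), and IGFBP3 from 63.5 and 94.1 to 200 and 212 CPM (1.39).

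The BCL2 family, which decides whether mitochondria release the triggers of apoptosis, changed in both directions. The 4 tested anti-apoptotic members fell, MCL1 most, from 238 and 239.8 CPM to 169 and 166 CPM (log2 FC -0.51 ± 0.078, adjusted p = 0.00072), but BCL2 missed the threshold with library size alone (-0.0527), with upper-quartile factors (-0.123) and when control replicate 2 (-0.198) or any quisinostat or romidepsin library was left out. Of 8 BH3-only members, which oppose them, BIK, BMF and BCL2L11 rose and BID and HRK fell, the falls missing the threshold with library size alone (-0.18 and -0.119). BMF had 32.03 and 35.9 CPM in the control and 74.96 and 77.9 CPM with quisinostat (log2 FC 1.17 ± 0.11, adjusted p = 4.3e-05), and BIK had 0.779 and 0.365 against 3.64 and 2.01 CPM (log2 FC 2.29 ± 0.41, adjusted p = 0.0018). Over all 15 members 7 fell and 3 rose (median -0.292), but 4 fell without control replicate 1 and 2 with library size alone or upper-quartile factors. Of 23 p53 targets 11 fell and 3 rose (median -0.236), or 7 fell with library size alone. FAS, the death receptor, fell from 18.95 and 25.3 to 10.6 and 12.8 CPM (log2 FC -0.91), and the secreted factor GDF15 rose from 102 and 133 to 152 and 161 CPM (0.41).

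Of 45 listed genes of antigen presentation 8 were below the filter, and members with few control counts pass it only through treated libraries. The share of tested members that rose, 37.8%, lies between the 28.0% of all tested genes and the 54.5% of those under 0.5 CPM in the control. Of 37 tested, 14 rose, 6 past both thresholds, and 5 fell (median 0.308), or 8 fell without control replicate 1 and 2 with library size alone. HLA-DMB, which helps load class II molecules, had 0.142 and 0.256 CPM in the control and 6.08 and 6.69 CPM with quisinostat (log2 FC 4.98 ± 0.29, adjusted p = 4.7e-06). CD274, the checkpoint ligand PD-L1, had 0.673 and 0.621 CPM against 5.98 and 5.38 CPM (log2 FC 3.13 ± 0.27, adjusted p = 3.3e-05). Of the 17 class I genes tested 3 rose and 3 fell. Among those that rose, the heavy chain HLA-B had 57.4 and 74.8 CPM against 97.6 and 101 CPM (log2 FC 0.59 ± 0.13, adjusted p = 0.0054). Both drug libraries exceeded both controls in HLA-DMB, CD274 and HLA-B, and HLA-DMB and CD274 remained at single-digit CPM. The NK cell ligand ULBP2 rose from 3.15 and 3.62 to 10.9 and 11.4 CPM (log2 FC 1.72), whereas the immunoproteasome subunit PSMB10 fell from 9.11 and 7.53 to 4.4 and 3.92 CPM. Of 47 interferon-stimulated genes 9 rose and 9 fell, with a median of -0.0293 that was 0.174 with library size alone, 0.102 with upper-quartile factors and 0.157 without control replicate 1; without control replicate 2, 16 fell. The guanylate-binding GTPases GBP2 (from 0.248 and 0.329 to 8.61 and 8.88 CPM, log2 FC 4.90) and GBP5 (0.106 and 0.402 to 3.799 and 3.66 CPM, 3.86) rose most, and TRIM22, an antiviral ubiquitin ligase, fell from 24.8 and 23.2 CPM to 8.199 and 7.07 CPM (log2 FC -1.65 ± 0.11, adjusted p = 1e-05).

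In metabolism, sterol genes and glycolytic genes were lower in many cases, as were highly expressed genes in general. Of all tested genes over 100 CPM in the control 49.7% were lower, and of those from 20 to 100 CPM 35.9%. The share of glycolysis genes that fell, 50.0%, is near the former. Of 28 genes for sterol synthesis and its control 17 fell and 3 rose (median -0.405), or 8 fell with library size alone and 11 with upper-quartile factors. ACAT2, the thiolase at the head of the mevalonate pathway, had 76.6 and 76.97 CPM in the control and 30.4 and 27.3 CPM with quisinostat (log2 FC -1.41 ± 0.085, adjusted p = 5.4e-06), with both controls above both drug libraries. Of 22 glycolysis genes 11 fell and 5 rose (median -0.328), or 5 fell with library size alone and 7 with upper-quartile factors. Enolase ENO1 fell from 1994 and 2012 CPM to 1103 and 1074 CPM (log2 FC -0.88 ± 0.098, adjusted p = 0.00013), and the glucose transporter SLC2A3 rose from 11.6 and 17.6 to 28.1 and 31.2 CPM (log2 FC 1.02).

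**Figure D4:**
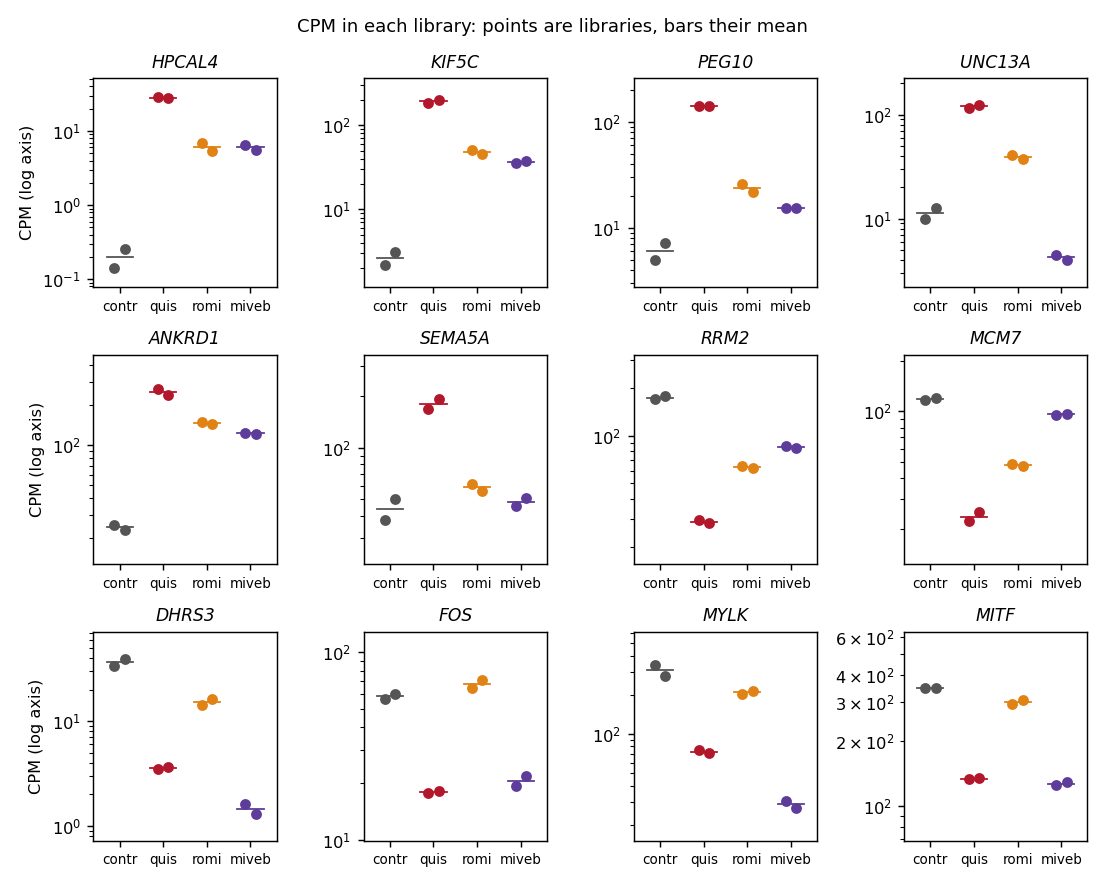
CPM of 12 genes in each of the 8 libraries on log axes (points are libraries, bars the mean of each pair; contr is control, quis quisinostat, romi romidepsin, miveb mivebresib). The top genes rise and RRM2, MCM7 and DHRS3 fall with quisinostat, with romidepsin between control and quisinostat. FOS, MYLK and MITF are lower with quisinostat than with romidepsin.

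The HDAC inhibitors were given at the same dose, 40 nM, for the same 24 h, and were compared directly as 1 pair of compounds. Quisinostat libraries were higher than romidepsin libraries in 3167 genes (21.0%) and lower in 2200 (14.6%), and past both thresholds higher in 816 (5.41%) and lower in 27 (0.179%). The counts by adjusted p alone changed with the libraries fitted, to 3751 higher and 3545 lower with only the 4 libraries of these compounds. Without any 1 of the quisinostat or romidepsin libraries they were 1686 to 1847 higher and 1077 to 1204 lower, and without control replicate 1, which enters through the filter and the shared estimate of the spread, 3333 were lower. Of the 1689 genes that rose past both thresholds over the control, 1290 were also higher than with romidepsin and 1 was lower, and of the 156 that fell, 104 were lower than with romidepsin and none higher. Against the same controls the median log2 FC of the risen genes was 2.69 with quisinostat and 1.32 with romidepsin, and that of the fallen genes -1.82 and -1.02. These genes were selected on the quisinostat values, and both comparisons share the controls. Equal molar dose does not mean equal inhibition of the enzymes, which was not measured here.

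The direct difference was uneven over the gene groups. Of 42 histone genes 5 were higher with quisinostat than with romidepsin and 6 lower, of 37 MHC and antigen presentation genes 7 were higher and 6 lower, and of 77 ribosomal protein genes none passed in either direction. For S phase genes 31 of 54 were lower with quisinostat than with romidepsin and 1 was higher, and for mitosis genes 25 of 52 were lower and 1 higher. For vesicle genes 24 of 42 were higher and 1 lower, and for the neuronal cytoskeleton 18 of 25 were higher and none lower. Members with few counts in the other groups may pass the filter only through the quisinostat libraries, so the shares of vesicle and cytoskeleton genes are descriptions. Genes with the largest direct rises were KRTAP2-3, a keratin-associated protein, with 48.8 and 43.6 CPM against 4.77 and 4.65 CPM with romidepsin and 2.87 and 2.78 in the control (log2 difference 3.29 ± 0.11, adjusted p = 8.2e-06 in edgeR), BEX5 with a log2 difference of 2.75, PEG10 with 2.57, the GABA transaminase ABAT with 2.46, CACNA1G with 2.37, NGFR with 2.36, the Notch ligand DNER with 2.30 and LYPD6 with 2.29. Other genes that moved with quisinostat stood close to it with romidepsin. MEPCE stood at 28.5 and 28.5 CPM with romidepsin (log2 difference -0.17 ± 0.084, adjusted p = 0.15, 95% interval -0.359 to 0.0232) and CD274 at 6.39 and 4.17 CPM (log2 difference 0.11 ± 0.20, adjusted p = 0.72, interval -0.358 to 0.57), and in neither did the direct comparison pass the test, which does not show that the compounds act alike on them.

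Among genes that were lower with quisinostat than with romidepsin, some stood near their control level with romidepsin. FOS stood at 64.3 and 71.2 CPM with romidepsin and 56.5 and 60.3 CPM in the control, against 17.8 and 18.3 CPM with quisinostat (log2 difference -1.91 ± 0.096, adjusted p = 2.6e-05). Of the 28 sterol genes 16 were lower with quisinostat than with romidepsin and 1 was higher. The efflux pump ABCB5 (log2 difference -1.66 ± 0.10, adjusted p = 4.7e-05), CITED1 (log2 difference -1.54), MYLK (-1.52), the smooth muscle protein TAGLN (-1.51) and DHRS3 (-2.09) were among the 8 largest direct falls. DHRS3 fell with romidepsin as well, to 14.4 and 16.25 CPM from 33.7 and 39.4 CPM in the control. MITF was at 293 and 308 CPM with romidepsin (log2 difference -1.18 ± 0.077, adjusted p = 5e-05), and of 30 pigmentation genes 15 were lower with quisinostat than with romidepsin and 4 higher. MYC was at 118 and 121 CPM and RASGRP3 at 137 and 138 CPM with romidepsin, both higher than with quisinostat (log2 difference -0.95 and -0.87). CDKN1A was likewise lower with quisinostat than with romidepsin (-0.59), as were GDF15 (-0.95) and BCL2L11 (-0.41). Against the control, however, quisinostat raised GDF15 and BCL2L11.

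**Figure D5:**
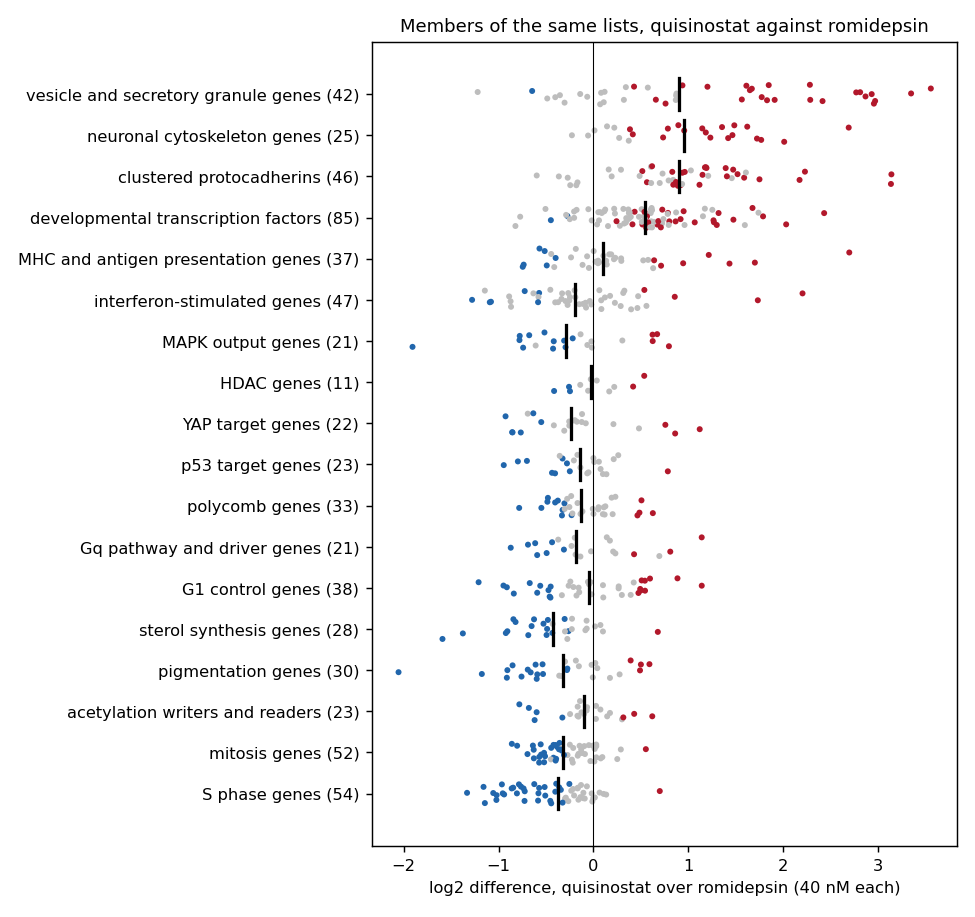
Log2 difference of quisinostat over romidepsin, both at 40 nM, for each tested member of the same 18 lists (points; bars are medians; red and blue passed an adjusted p below 0.05). Vesicle, cytoskeleton and protocadherin genes lie mostly to the right of 0, and S phase, mitosis, sterol and pigmentation genes mostly to the left.

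Against mivebresib, given at 1200 nM, 4756 genes were higher with quisinostat (31.5%) and 3954 lower (26.2%); the doses differ, and these values stand beside each other only. UNC13A had 4.499 and 3.96 CPM with mivebresib, below its control, and 116 and 124 CPM with quisinostat. MCM7 had 95.3 and 97.1 CPM with mivebresib and 22.3 and 25.1 with quisinostat, while DHRS3 had 1.61 and 1.295 and 3.51 and 3.66 CPM. Of the 1689 genes that rose past both thresholds with quisinostat, 1402 were higher than with mivebresib and 24 lower, and of the 156 that fell, 100 were lower and 18 higher. These genes were selected on the quisinostat values, which enter both comparisons, so the counts are a description.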

How the data were processed

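RNA was extracted from MP38 cells after 24 h of treatment and sequenced as strand-specific mRNA libraries. Read counts per gene symbol were made by the authors with BioJupies on hg38, per the labels' processing notes and the study's methods, and deposited as whole numbers. The aligner, the annotation and the strand setting of the counting are not given in the sources used here. The authors also deposited a quantile-normalized table, treated here as a score because its scale is not named, and log CPM values, which were not used.

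Of 35238 symbols, 15085 passed edgeR's filterByExpr and were fitted with TMM factors and the quasi-likelihood test in 1 model of all 8 libraries (R 4.3.3, edgeR 4.0.16). The fit was also run on simulated counts in which a small share of well counted genes changed. That run does not test genes near 0 in the control or a change as broad as the one here. P-values were adjusted by Benjamini-Hochberg over all tested genes, at 0.05, and past both thresholds also means a log2 FC beyond 1.5. Errors are SE, the common biological coefficient of variation was 0.0938, and each group has n = 2. A CPM pair gives replicate 1, then replicate 2. Named genes were list members, the 12 largest rises and falls by log2 FC, and 8 by gain or loss of CPM, against romidepsin or among genes near 0 in the control, and a few of these are not reported here. The groups, lists and rules were chosen with earlier results of these data known. Promoter sequences were RefSeq's, and gene spans GENCODE 29's. DESeq2 1.42.0 and limma 3.58.1 served as alternatives.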

Additional observations from a re-analysis of the deposited data

How the results depend on the processing

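Of 140 counts of calls recomputed under other settings, 119 stayed within 1.5 times the value in the report. For quisinostat against control, a mean of at least 5 CPM left 2729 higher genes, and 427 higher and 70 lower past both thresholds, since fewer genes were tested. Library size alone gave 2144 lower genes, and 96 past both thresholds, and a log2 FC beyond 1 gave 536 lower. The quantile-normalized table in limma gave 1633 higher and 1244 lower, and the cause was not tested. DESeq2 gave 3868 and 3748. Against romidepsin, the CPM minimum gave 2001 higher genes, library size alone 1298 lower, and a fit of only those 4 libraries 3545 lower. Against mivebresib, library size alone gave 2554 lower. Leaving out 1 library at a time, where the lone sample of a group is assumed to vary like the others, gave 3248 to 4449 higher and 2574 to 4356 lower genes for quisinostat against control, and 1569 to 1821 and 148 to 194 past both thresholds. The same gave 1686 to 3961 higher and 1077 to 3333 lower against romidepsin, and 3887 to 5352 and 2828 to 4708 against mivebresib. The highest number lower than with romidepsin, 3333, came without control replicate 1, and the lowest, 1077, without quisinostat replicate 1. The replicate numbers do not pair the libraries, since deviations from the group means correlated at -0.162 to 0.158 over pairs of groups. With the replicate block 4195 genes were higher and 3759 lower than control, 1687 and 154 past both thresholds. Among named genes, 5 that did not pass the test changed sign. With library size alone the log2 FC was 0.141 for HDAC1, 0.0259 for HDAC2 and 0.192 for PMEL, with upper-quartile factors 0.0704 for HDAC1 and 0.12 for PMEL, and with the CPM minimum 0.0354 and 0.0847. PMEL was at 0.00555 in limma-voom and ran from -0.237 to 0.245 as 1 library was left out, REST from -0.0368 to 0.0834, and the difference of CD274 from romidepsin from -0.173 to 0.441. Among the called values named, those of BCL2, BCL2L11 (against romidepsin), BID, CDKN1A, EP300, FOXD3, GDF15, GNA11, GNAQ, HDAC4, HDAC9, HRK, KIT, KRT8, MC1R, RCOR2 and SFT2D3 missed the threshold under at least 1 setting, and kept their direction in all.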

Other observations

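Clustered protocadherins, adhesion proteins of which each neuron chooses a few, were higher with quisinostat in 30 of 46 tested genes, 18 past both thresholds, with none lower and a median log2 FC of 1.21 (12 past both without control replicate 1). Their reads can be shared between near-identical copies. Protocadherins with few counts in the control pass the filter only through treated libraries. The members of the beta cluster were higher in 14 of 16 genes, and their summed level went from 67.1 and 104 CPM in the control libraries to 163 and 189 CPM. In the alpha cluster 9 of 11 were higher, and PCDHAC1 had 4 counts in the control against 275, a ratio of 60.7 (95% interval 23.4 to 224.0 for counting error only). In the gamma cluster 7 of 19 were higher. Directly against romidepsin, 25 of the 46 were higher with quisinostat and none lower.

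Of 23 epithelial and mesenchymal genes 11 were higher and 3 lower. OCLN, a tight junction protein, rose from 1.31 and 2.01 CPM to 13.2 and 12.7 CPM (log2 FC 2.97 ± 0.17, adjusted p = 5e-06 in edgeR), while the intermediate filament VIM fell from 3884 and 4001 CPM to 2444 and 2325 CPM (log2 FC -0.73 ± 0.11, adjusted p = 0.00058). The repressor ZEB1 rose from 6.94 and 8.69 to 16.7 and 16.9 CPM and its relative ZEB2 fell from 231 and 268 to 147 and 155 CPM. Of 42 listed cancer-testis antigens 27 were below the filter and 1 was not found. Among the 14 tested 5 were higher (35.7%) and none lower, but members with few control counts pass the filter only through treated libraries. Of all tested genes 28.0% were higher, and of those under 0.5 CPM in the control 54.5%. MAGEA10 went from 0.106 and 0.183 to 10.2 and 10.7 CPM with 1.13 and 1.31 CPM under romidepsin. Of 26 ABC transporters 8 were higher and 5 lower, with a median of 0.197 that was -0.0129 without control replicate 1. ABCG2, a drug efflux pump like ABCB1, rose from 1.38 and 1.68 to 5.48 and 6.496 CPM (log2 FC 1.97 ± 0.19, adjusted p = 6.4e-05).

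Of 27 stress response genes 12 were lower and 5 higher, or 5 lower and 9 higher with library size alone. ASNS, asparagine synthetase, rose from 32.2 and 34.2 to 67.4 and 61.6 CPM (log2 FC 0.96 ± 0.083, adjusted p = 3.4e-05), and XBP1, a factor of the unfolded protein response, fell from 127 and 156 to 79.4 and 86.5 CPM (log2 FC -0.77 ± 0.11, adjusted p = 0.00048). Of 77 ribosomal protein genes 8 were lower and none higher, but 75 were lower without control replicate 2 and 1 without control replicate 1. The cause was not tested. Of 41 lysosome genes 6 were higher and 3 lower, with a median of 0.0202 that was -0.0868 without control replicate 1 and 0.258 without control replicate 2. Of 5 metallothioneins MT1F alone passed the test, with 3.76 and 2.19 CPM in the control and 6.52 and 5.99 CPM with quisinostat, and the median of -0.274 was 0.161 without control replicate 1.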
